A study of Arabidopsis thaliana with 24 samples.

Results

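The 10 genes described here carry the shared entry into the phenylpropanoid pathway and the first steps of flavonoid synthesis in Arabidopsis thaliana. They were picked by locus identifier for their place in the pathway, and all 10 are present in both deposited tables among 37336 gene identifiers. In this pathway phenylalanine is deaminated, hydroxylated and joined to coenzyme A, and the product is condensed, closed into a ring and hydroxylated to a dihydroflavonol. Flavonol synthase and dihydroflavonol reductase compete for that dihydroflavonol, the flavonol and anthocyanin branches parting there. In Arabidopsis leaves flavonols act mainly as sunscreens and antioxidants, anthocyanins accumulate under many stresses, and the R2R3-MYB proteins MYB12 and MYB111 are known activators of the early flavonoid and flavonol genes.

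RNA of whole leaves was sequenced from gtl1-4, a knockout mutant of the trihelix factor gene GTL1, and from the wild-type accession Col-0. Plants were held under water deficit, at 30% of the water content of the growth medium, or well-watered, at 65 to 100%. Leaves were taken when emerging, on day 1 from emergence, or when expanding, on days 14 to 15. The 8 groups each hold 3 biological replicates, each a pool of 10 plants, giving 24 libraries. Each leaf age therefore has gtl1-4 under water deficit, gtl1-4 well-watered, Col-0 under water deficit and Col-0 well-watered. From its title, the series asks how repression of GTL1 under water deficit bears on anthocyanin and polyamine synthesis.

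Libraries of emerging leaves held 14.7 to 43.5 M counts and those of expanding leaves 14.9 to 27.1 M. Nuclear genes had 11.4 to 32.8 M of these in emerging and 4.74 to 10.0 M in expanding leaves, where chloroplast genes took a median of 68.6% of counts, against 21.9% in emerging leaves. GTL1 (AT1G33240) was checked first. In emerging leaves it had normalized counts of 216, 151 and 186 in gtl1-4 under deficit against 1171, 954 and 989 in Col-0 under deficit, and 301, 320.3 and 384 in well-watered gtl1-4 against 1511, 1459.5 and 1379 in well-watered Col-0. In expanding leaves it had 123, 128 and 157 in gtl1-4 under deficit against 421, 571 and 518 in Col-0 under deficit, and 257, 322 and 236 in well-watered gtl1-4 against 778, 739.5 and 951 in well-watered Col-0. Every gtl1-4 library was below every Col-0 library of its leaf age and water supply, as the genotype labels require. Where gtl1-4 interrupts the gene was not stated in the labels, and some reads remained in every mutant library.

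Some libraries stood apart. In expanding leaves, Col-0 water-deficit replicate 2 had the highest chloroplast share, 78.6%, and the lowest value of its group for 6 of the 8 enzyme genes. Well-watered Col-0 replicate 3 had the lowest mean correlation with its group (r = 0.930 on the log2 scale) and the lowest value for 5 of 8. Replicate 3 of gtl1-4 under deficit was the lowest of its group for 8 of 8 enzyme genes in expanding leaves, and replicate 1 of gtl1-4 under deficit for 7 of 8 in emerging leaves. Also in emerging leaves, well-watered Col-0 replicate 1 was the lowest for 6 of 8 and well-watered gtl1-4 replicate 2 the highest for 7 of 8. Counts of members called and some values in expanding leaves are also given without the pair of Col-0 libraries named above from that leaf age. This pair was chosen after the data were seen, member values included. Values without the pair are therefore not independent support, and the low gtl1-4 replicate 3 stayed in those fits.

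Markers of dividing cells, such as CYCB1-1 and KNOLLE, together reached 4214 to 5654 normalized counts in emerging and 19.7 to 79.0 in expanding libraries. The 6 photosynthesis markers summed to 311759 to 443275 in emerging and 189613 to 322549 in expanding libraries. Root markers summed to at most 26.6 and flower and seed markers to at most 21.2. The 5 epidermis markers summed to 17984 to 25052 in emerging and 2564 to 4024 in expanding leaves. The tables of the leaf ages were scaled separately, so a lower sum in expanding leaves is not by itself a lower share of RNA. In replicate 1 of well-watered Col-0, nuclear genes together had 5.99e+06 normalized counts in expanding and 2.15e+07 in emerging leaves. In whole-leaf RNA, fewer cells of a type and less RNA per cell cannot be told apart.

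In TAIR10.1 coordinates, PAL1 lies at chr2:15557367-15560755 and C4H at chr2:12993625-12996012, both on the minus strand, with 2 and 3 exons. PAL2 (chr3:19744018-19747114, 2 exons), CHI (chr3:20430059-20431597, 4 exons), 4CL3 (chr1:24167202-24171635, 6 or 7 exons by transcript) and MYB111 (chr5:19998823-20001572, 3 exons) are also on the minus strand. CHS (chr5:4488476-4490264, 2 exons), F3H (chr3:19025192-19026872, 3 or 4), FLS1 (chr5:2803833-2805606, 3 or 4) and MYB12 (chr2:19476326-19479597, 3) are on the plus strand. Values are given per gene.

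Short promoter stretches are shown for the members whose 300 bases before the gene start hold an AC-I element or a G-box, motifs long studied in promoters of this pathway. The letters were read from the TAIR10.1 genome of RefSeq, and capitals mark the motif. The AC-I element ACCTACC, a MYB recognition element, stands in 2 copies before 4CL3, and the G-box CACGTG, bound by bZIP and bHLH factors, before CHS, F3H and MYB12. The stretches lie at chr1:24171682-24171770 on the minus strand for 4CL3, and on the plus strand at chr5:4488228-4488263 for CHS, chr3:19024928-19024963 for F3H and chr2:19476193-19476228 for MYB12.
4CL3: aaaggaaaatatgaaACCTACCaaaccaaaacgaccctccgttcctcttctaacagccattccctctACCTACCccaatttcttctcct
CHS: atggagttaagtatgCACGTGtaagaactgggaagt
F3H: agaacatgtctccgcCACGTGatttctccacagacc
MYB12: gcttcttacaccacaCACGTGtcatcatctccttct
Of 27443 promoters of that length searched on both strands, 1.33% held ACCTACC and 7.09% held CACGTG, which is palindromic and counted once. The related ACCAACC and ACCTAAC were in 3.18 and 2.93% of promoters and in 0 of the 10 members. The GT3 box GGTAAA, the motif GTL1 is known to bind, was in 17.3% of all promoters and in those of CHS and MYB111. The motifs do not overlap one another, and a match describes letters only.

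Per kilobase of exon, the order of levels was similar in both leaf ages. In well-watered Col-0 emerging leaves CHS averaged 3802 ± 131 normalized counts per kilobase (SD, n = 3), C4H 2429 ± 139, PAL2 831 ± 60.4 and PAL1 628 ± 33.2. F3H followed at 562 ± 22.0, FLS1 at 442 ± 34.2, 4CL3 at 354 ± 16.04 and CHI at 229 ± 10.4. MYB111 and MYB12, which encode regulators, were far below at 15.2 ± 2.82 and 11.6 ± 4.62. Each neighbour in that order differed beyond the range of its 3 libraries except the pair MYB111 and MYB12. In well-watered Col-0 expanding leaves CHS, C4H, PAL2 and PAL1 again led, at 1177 ± 189, 557 ± 56.2, 338 ± 14.2 and 224 ± 11.3 normalized counts per kilobase. There FLS1 at 107 ± 17.0 overlapped F3H at 107 ± 24.5, and 4CL3 at 56.6 ± 15.1 overlapped CHI at 41.5 ± 8.54. The tables of the leaf ages were scaled separately, so levels set across them carry no test. Per M nuclear counts, well-watered Col-0 had 318 for CHS in expanding and 299 in emerging leaves. PAL1 had 105 in expanding and 85.2 in emerging leaves, 4CL3 20.1 in expanding and 36.2 in emerging leaves, and MYB111 0.171 in expanding and 1.15 in emerging leaves. Under deficit F3H came next after CHS and C4H in both lines and leaf ages, for example at 1612 ± 186 normalized counts per kilobase in emerging Col-0 leaves, where it overlapped PAL2 at 1364 ± 167.

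Most of these genes were higher under water deficit, and CHI and F3H rose in all 4 combinations of genotype and leaf age. In emerging leaves 6 of 10 members rose in gtl1-4, where 4.98% of all tested genes rose, and 6 of 10 rose in Col-0, where 6.48% did. None fell in either line. Over all called genes 56.1% of 1644 in gtl1-4 and 49.2% of 2439 in Col-0 were higher, and the rest were lower. A call here is an adjusted p under 0.05 from limma over all tested genes, and fold changes are of log2(normalized count + 1), which understates low genes. The median log2 fold change of the members was 0.49 in gtl1-4 and 0.74 in Col-0, against medians over all tested genes of -0.002 in gtl1-4 and -0.003 in Col-0. The groups did not overlap for 6 members in gtl1-4 and for 9 in Col-0, where 12.9% of all tested genes in gtl1-4 and 17.3% in Col-0 were higher without overlap. With values rescaled to nuclear totals, 69.0% of the called genes of Col-0 were higher, against 49.2% on the deposited scale.

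**Figure D1:**
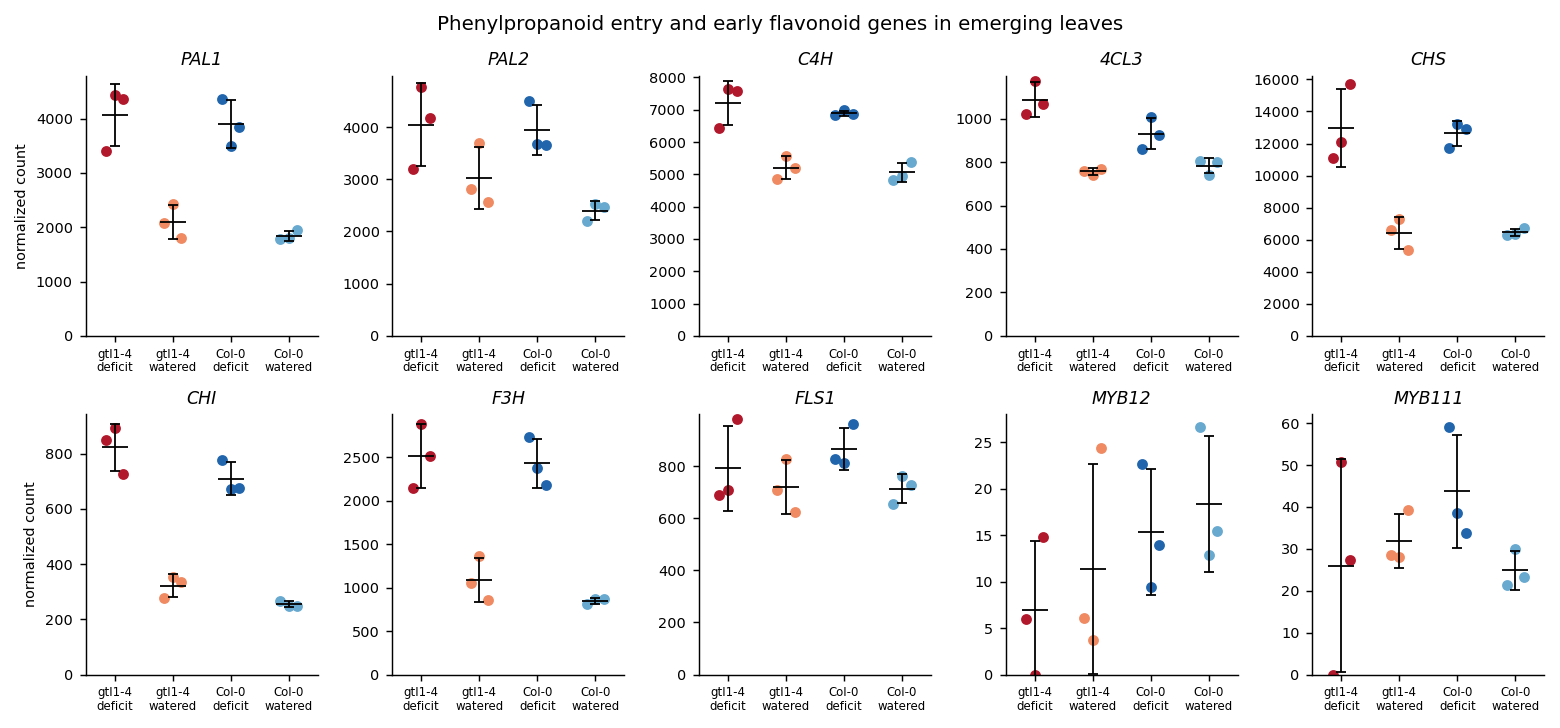
Normalized counts of the 10 genes in emerging leaves, one panel per gene. Points are libraries and black bars the mean ± SD of 3, with gtl1-4 and Col-0 groups under water deficit left of their well-watered groups. PAL1, C4H, 4CL3, CHS, CHI and F3H sit higher under deficit in both lines without overlap.

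PAL1 (AT2G37040) and PAL2 (AT3G53260) encode phenylalanine ammonia-lyases, the entry enzymes. In emerging leaves PAL1 had 3411, 4431 and 4366 normalized counts in gtl1-4 under deficit, against 2081, 2421 and 1799.6 when well-watered. The Col-0 libraries had 4358, 3488 and 3839 under deficit, against 1776, 1796 and 1953 when well-watered. All deficit libraries were above all well-watered ones in both lines. The log2 fold change was 0.95 (SE 0.13, adjusted p = 0.000268) in gtl1-4 and 1.08 (SE 0.13, adjusted p = 8.53e-05) in Col-0.

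PAL2 had 3189, 4777 and 4177 normalized counts in gtl1-4 under deficit, against 2807, 3687 and 2572 when well-watered. Col-0 under deficit had 4495, 3674 and 3648, against 2201, 2523 and 2477 in well-watered Col-0. The Col-0 groups were apart, while in gtl1-4 the lowest deficit library lay inside the well-watered range. PAL2 was called in Col-0 (log2 fold change 0.71, SE 0.15, adjusted p = 0.00677) and not in gtl1-4 (0.42, SE 0.15, adjusted p = 0.102). The difference between the lines, -0.29 (SE 0.22), did not pass (adjusted p = 0.891). PAL1 and PAL2 are close copies, and how RSEM divided reads that match both is not known here.

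C4H (AT2G30490), the cytochrome P450 that hydroxylates cinnamate, had 6421, 7643 and 7565 normalized counts in gtl1-4 under deficit, against 4858, 5565 and 5189 when well-watered. In Col-0 it had 6825, 6979.7 and 6872 under deficit, against 4839, 4953 and 5386 when well-watered. Again the deficit libraries were all above the well-watered ones. Its rise was the smallest of the called ones in Col-0, 0.45 (SE 0.09, adjusted p = 0.00619), and was 0.47 (SE 0.09, adjusted p = 0.00628) in gtl1-4. 4CL3 (AT1G65060), the 4-coumarate:CoA ligase isoform tied to flavonoid synthesis, had 1020.4, 1175 and 1068 in gtl1-4 under deficit, against 760.3, 740.3 and 770.03 when well-watered. The Col-0 libraries had 861, 1007 and 926 under deficit, against 805, 742 and 803 when well-watered. The groups were apart in both lines, by a narrow margin in Col-0. 4CL3 was called in gtl1-4 (0.52, SE 0.10, adjusted p = 0.00491) but not in Col-0 (0.25, SE 0.10, adjusted p = 0.123). The difference of 0.27 (SE 0.14) between the lines had adjusted p = 0.889.

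CHS (AT5G13930), chalcone synthase, makes the first flavonoid, and its RefSeq symbol is TT4. It had 11085, 12119.9 and 15707 normalized counts in gtl1-4 under deficit, against 6637, 7302 and 5366 when well-watered. Col-0 under deficit had 11745, 13217 and 12919, against 6317, 6376 and 6729.8 in well-watered Col-0. The deficit groups stood clear of the well-watered groups. The log2 fold change was 1.01 (SE 0.13, adjusted p = 0.000237) in gtl1-4 and 0.96 (SE 0.13, adjusted p = 0.000282) in Col-0.

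CHI (AT3G55120, RefSeq symbol TT5) encodes chalcone isomerase, which closes the flavanone ring. It had 849, 891 and 726 normalized counts in gtl1-4 under deficit, against 276, 354 and 336 when well-watered. In Col-0 it had 777, 673 and 676 under deficit, against 268, 248 and 248 when well-watered. No library of either deficit group came near the well-watered range. CHI rose by 1.35 (SE 0.13, adjusted p = 2.46e-05) in gtl1-4 and 1.47 (SE 0.13, adjusted p = 8.04e-06) in Col-0 on the log2 scale.

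F3H (AT3G51240), flavanone 3-hydroxylase, makes the dihydroflavonol at which the branches part. It had 2145, 2889.8 and 2517 normalized counts in gtl1-4 under deficit, against 1049, 1361 and 863 when well-watered. The Col-0 libraries had 2735, 2375 and 2181.6 under deficit, against 809, 868 and 864 when well-watered. The groups were apart in both lines. It rose by 1.22 (SE 0.15, adjusted p = 0.000128) in gtl1-4 and by 1.51 (SE 0.15, adjusted p = 1.72e-05) in Col-0. CHS and F3H each overlap a gene annotated on the opposite strand, AT5G13940 and AT3G51238, and strand use in the counting is not stated, so reads of each pair cannot be told apart.

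FLS1 (AT5G08640), the main flavonol synthase, moved least among the enzymes that follow chalcone synthase. It had 691, 708 and 981 normalized counts in gtl1-4 under deficit, against 711, 829 and 624 when well-watered. Col-0 under deficit had 827, 814 and 961, against 654, 763 and 727 in well-watered Col-0. The gtl1-4 groups overlapped, while those of Col-0 were narrowly apart. Neither change was called, at 0.13 (SE 0.15, adjusted p = 0.636) in gtl1-4 and 0.28 (SE 0.15, adjusted p = 0.235) in Col-0.

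MYB12 (AT2G47460) and MYB111 (AT5G49330) encode the R2R3-MYB activators and had low counts, at most 38 reads for MYB12 and 99 for MYB111 in an emerging library. In emerging leaves MYB12 had 6.01, 0 and 14.8 normalized counts in gtl1-4 under deficit and 6.10, 3.72 and 24.4 in well-watered gtl1-4. It had 22.7, 9.41 and 13.9 in Col-0 under deficit and 26.6, 12.9 and 15.5 in well-watered Col-0. The 4 groups overlapped. MYB111 had 0, 50.7 and 27.3 in gtl1-4 under deficit and 28.5, 27.9 and 39.2 in well-watered gtl1-4, and 59.1, 38.4 and 33.7 in Col-0 under deficit and 21.3, 30.1 and 23.2 in well-watered Col-0. The Col-0 groups of MYB111 were apart and the gtl1-4 groups were not, with 1 gtl1-4 library under deficit listed at 0. The SE of the fitted water responses was 0.97 for MYB12 and 0.99 for MYB111, and none passed (adjusted p = 0.376 to 0.896). A count of 3 corresponds to 1.79 to 5.80 normalized counts in these libraries.

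In expanding leaves 8 of the 10 members passed the filter on low values, a mean of at least 10. Of these 8, 2 rose in gtl1-4, where 2.36% of all tested genes rose, and 6 rose in Col-0, where 6.18% did. None of the 8 fell. Over all called genes 49.6% of 787 in gtl1-4 and 45.8% of 2231 in Col-0 were higher, and the rest were lower. The median of the 8 was 0.43 in gtl1-4 and 0.73 in Col-0, against 0.008 in gtl1-4 and 0.016 in Col-0 over all tested genes. Groups did not overlap for 3 members in gtl1-4 and 6 in Col-0, where 12.9% of all tested genes in gtl1-4 and 14% in Col-0 were higher without overlap. The count was 6 in Col-0 and 2 in gtl1-4 without the pair of Col-0 libraries that stood apart. Without Col-0 water-deficit replicate 1, the highest of its group for 7 of 8 enzyme genes, it was 3 in Col-0. In gtl1-4 it was 0 without well-watered replicate 1, without well-watered replicate 2 or without water-deficit replicate 2, and 1 without water-deficit replicate 1. Scaled to nuclear totals, 62.8% of the calls in gtl1-4 were higher, against 49.6% on the deposited scale.

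**Figure D2:**
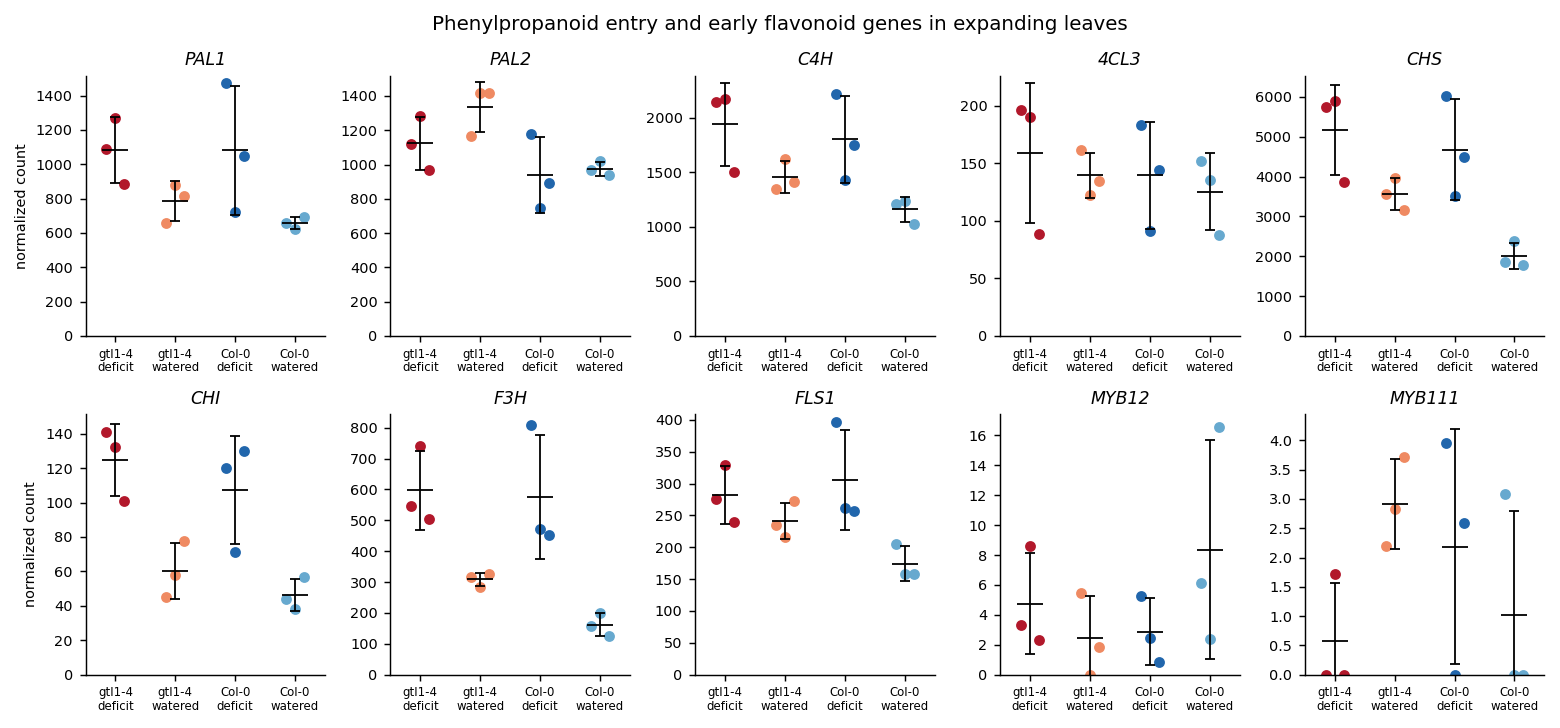
Normalized counts of the 10 genes in expanding leaves, drawn as for emerging leaves. Among enzyme genes well-watered Col-0 is lowest on average except for PAL2, and water-deficit Col-0 spreads widely. MYB12 and MYB111 reach at most 16.6 normalized counts.

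F3H had 547, 741 and 503 normalized counts in gtl1-4 under deficit, against 315, 285 and 325 when well-watered. In Col-0 it had 809, 471 and 451 under deficit, against 157, 200.1 and 126 when well-watered. The groups were apart in both lines, and well-watered Col-0 was below all others. F3H rose by 0.93 (SE 0.22, adjusted p = 0.0189) in gtl1-4 and by 1.81 (SE 0.22, adjusted p = 6.33e-05) in Col-0, the largest rise of a member there, and by 1.76 in Col-0 without the pair of Col-0 libraries. In gtl1-4 the F3H call was lost without well-watered replicate 1 or 2 or water-deficit replicate 2 (adjusted p up to 0.125).

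CHI had 141, 132 and 101 normalized counts in gtl1-4 under deficit, against 45.0, 57.9 and 77.6 when well-watered. The Col-0 libraries had 120.1, 71.3 and 129.9 under deficit, against 43.9, 38.1 and 56.6 when well-watered. The deficit groups were above the well-watered ones, with replicate 2 of Col-0 close to them. CHI rose by 1.06 (SE 0.26, adjusted p = 0.0277) in gtl1-4 and 1.17 (SE 0.26, adjusted p = 0.00827) in Col-0. Its rise in Col-0 was 1.59 without the pair of Col-0 libraries. In gtl1-4 the CHI call was lost without well-watered replicate 1 or 2 or water-deficit replicate 1 or 2 (adjusted p up to 0.130).

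CHS had 5749, 5888 and 3865 normalized counts in gtl1-4 under deficit, against 3559, 3957 and 3167 when well-watered. Col-0 under deficit had 6018, 3505 and 4488, against 1846, 2376 and 1792 in well-watered Col-0. The Col-0 groups were apart, and replicate 3 of gtl1-4 under deficit lay inside the well-watered range. The rise was called in Col-0 (1.20, SE 0.20, adjusted p = 0.000874, and 1.31 without the pair of Col-0 libraries) and not in gtl1-4 (0.52, SE 0.20, adjusted p = 0.177).

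FLS1 had 275, 329.5 and 239.9 normalized counts in gtl1-4 under deficit, against 235, 216 and 272 when well-watered. In Col-0 it had 396, 262 and 257 under deficit, against 205, 157 and 159 when well-watered. Only the Col-0 groups of FLS1 were apart. It rose by 0.79 (SE 0.19, adjusted p = 0.0107) in Col-0 and was at 0.22 (SE 0.19, adjusted p = 0.647) in gtl1-4. Without Col-0 water-deficit replicate 1 the FLS1 call was lost (adjusted p = 0.0576).

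Of the entry genes, C4H had 2149, 2173 and 1503 normalized counts in gtl1-4 under deficit against 1344, 1626 and 1413 when well-watered, and in Col-0 2224, 1432 and 1752 under deficit against 1212, 1242 and 1026 when well-watered. PAL1 had 1089, 1269 and 886 in gtl1-4 under deficit against 659, 882 and 816 when well-watered, and in Col-0 1473, 723 and 1050.1 under deficit against 657, 624 and 690.3 when well-watered. PAL1 groups were narrowly apart in both lines, while C4H groups were apart in Col-0 and overlapped in gtl1-4. For Col-0, C4H rose by 0.62 (SE 0.17, adjusted p = 0.0252) and PAL1 by 0.66 (SE 0.20, adjusted p = 0.0429), while in gtl1-4 they were at 0.39 (adjusted p = 0.253) and 0.46 (adjusted p = 0.277). Without the pair of Col-0 libraries the rise of PAL1 in Col-0 was 0.96 and that of C4H 0.69. The PAL1 call in Col-0 held in 10 of 19 alternatives, with adjusted p of 0.00327 to 0.189. Leaving out any Col-0 replicate but water-deficit replicate 2 ended it, and C4H lost its call without well-watered replicate 3 or water-deficit replicate 1.

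PAL2 and 4CL3 did not pass in expanding leaves. PAL2 had 1121, 1280.4 and 970.03 normalized counts in gtl1-4 under deficit against 1168, 1419 and 1417 when well-watered, and in Col-0 1178, 744 and 891 under deficit against 967, 1019 and 939 when well-watered. Its groups overlapped in both lines, at -0.25 (SE 0.16, adjusted p = 0.491) in gtl1-4 and -0.08 (SE 0.16, adjusted p = 0.776) in Col-0, which became 0.05 without the pair of Col-0 libraries that stood apart. 4CL3 had 197, 191 and 88.4 in gtl1-4 under deficit against 161, 123 and 135 when well-watered, and in Col-0 183, 91.0 and 144 under deficit against 152, 136 and 88.0 when well-watered. Its groups overlapped too, with adjusted p = 0.925 in gtl1-4 and 0.814 in Col-0.

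MYB12 had 3.32, 8.58 and 2.30 normalized counts in gtl1-4 under deficit and 5.48, 0 and 1.86 in well-watered gtl1-4. It had 5.28, 2.46 and 0.866 in Col-0 under deficit and 6.15, 2.38 and 16.6 in well-watered Col-0. MYB111 was at or below 3.96 in all 12 libraries and listed at 0 in 5. Both averaged under 10 in expanding leaves and were not tested there, where a count of 3 is 1.86 to 4.23 normalized counts.

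**Figure D3:**
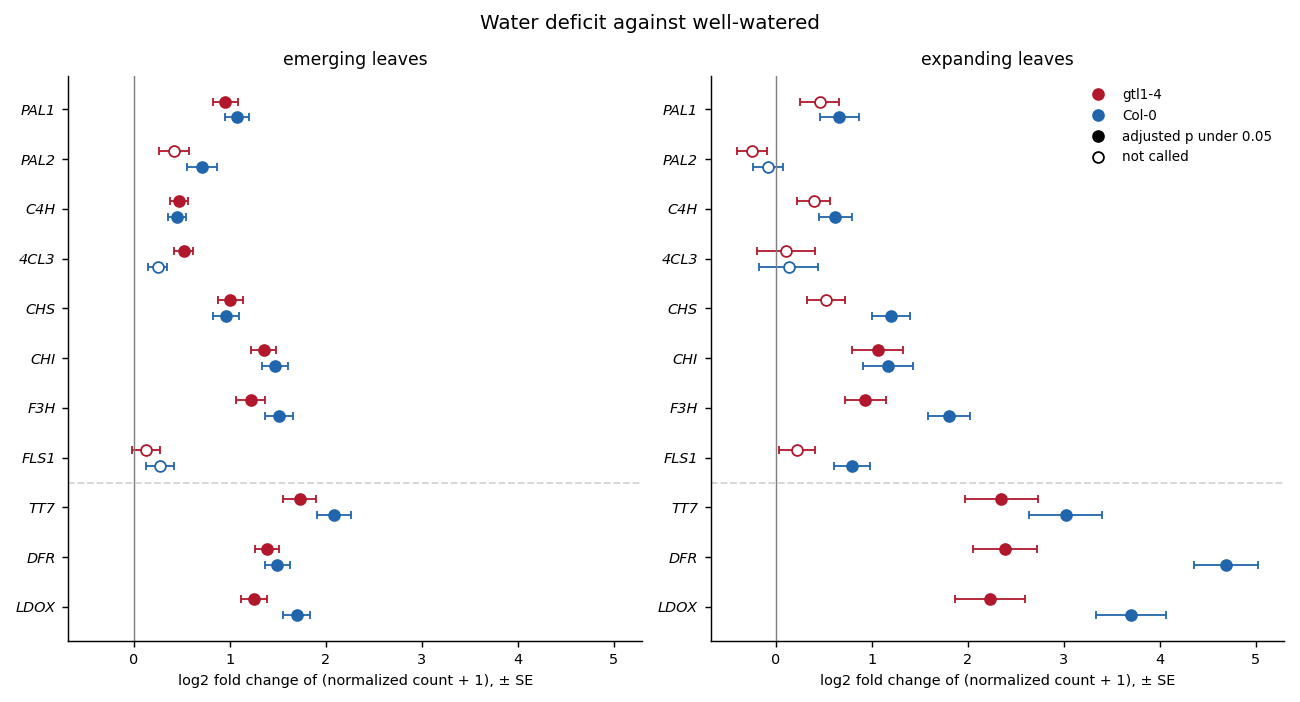
Log2 fold change of water deficit against well-watered in emerging (left) and expanding (right) leaves, with the standard error, for gtl1-4 (red) and Col-0 (blue). Filled points passed an adjusted p of 0.05. The 8 enzyme genes stand above the dashed line and TT7, DFR and LDOX below it, and in expanding Col-0 leaves DFR reaches 4.69, against 0.79 for FLS1.

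When well-watered, expanding gtl1-4 leaves had higher levels of CHS and F3H than Col-0, the 2 members called of 8, where 0.708% of all tested genes were higher. CHS had 3559, 3957 and 3167 normalized counts in gtl1-4 against 1846, 2376 and 1792 in Col-0. F3H had 315, 285 and 325 in gtl1-4 against 157, 200.1 and 126 in Col-0. No library of Col-0 reached the gtl1-4 range for either gene. The log2 fold change was 0.83 (SE 0.20, adjusted p = 0.0498) for CHS and 0.95 (SE 0.22, adjusted p = 0.0414) for F3H.

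All 8 tested members had a positive value in that comparison, with a median of 0.40 against 0.007 over all tested genes. An unadjusted p under 0.05 was found for 4 of 8 members and for 2430 of all 16522 tested genes. Without the pair of Col-0 libraries 4CL3 turned to -0.05. Groups did not overlap for 5 of 8, namely PAL2, C4H, CHS, F3H and FLS1, where 8.79% of all tested genes were higher without overlap. Both calls are close to the threshold. The adjusted p of F3H was 0.0299 to 0.154 and that of CHS 0.0254 to 0.158 over the alternatives, and neither passed without the pair of Col-0 libraries that stood apart (adjusted p = 0.0813 and 0.0576). Leaving out any 1 of the 6 well-watered libraries other than Col-0 replicate 2 left 0 calls. On nuclear totals 37.5% of the calls were higher, against 52.7% on the deposited scale. Of all 16522 tested genes 222 were called there, 52.7% of them higher. CER6, a wax gene, was lower in well-watered gtl1-4 (-0.76, SE 0.18, adjusted p = 0.0494), the only epidermis marker called of 4 tested. Without the pair of Col-0 libraries CER6 was at -0.73 (adjusted p = 0.0385). Its part in the result was not tested.

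In the remaining genotype comparisons 0 members were called by limma. In well-watered emerging leaves 0.162% of all tested genes were called and 2 members, CHI and F3H, had an unadjusted p under 0.05, at log2 fold changes of 0.33 (SE 0.13, adjusted p = 0.668) and 0.34 (SE 0.15, adjusted p = 0.706). Under deficit 0.183% were called in emerging leaves, with 1 member, 4CL3, under 0.05 unadjusted, and 0.169% in expanding leaves, with 0 members under 0.05. Over all tested genes 1276 of 18529 were under 0.05 unadjusted in well-watered emerging leaves. Under deficit these were 1056 of 18529 in emerging and 1099 of 16522 in expanding leaves. Limma-voom on recovered counts also called 0 members in these comparisons. In expanding leaves under deficit F3H had 547, 741 and 503 normalized counts in gtl1-4 against 809, 471 and 451 in Col-0, a log2 difference of 0.08 (SE 0.22, adjusted p = 0.974). CHS there was at 0.16 (SE 0.20, adjusted p = 0.928). Without the pair of Col-0 libraries both turned sign, to -0.04 for F3H and -0.03 for CHS.

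**Figure D4:**
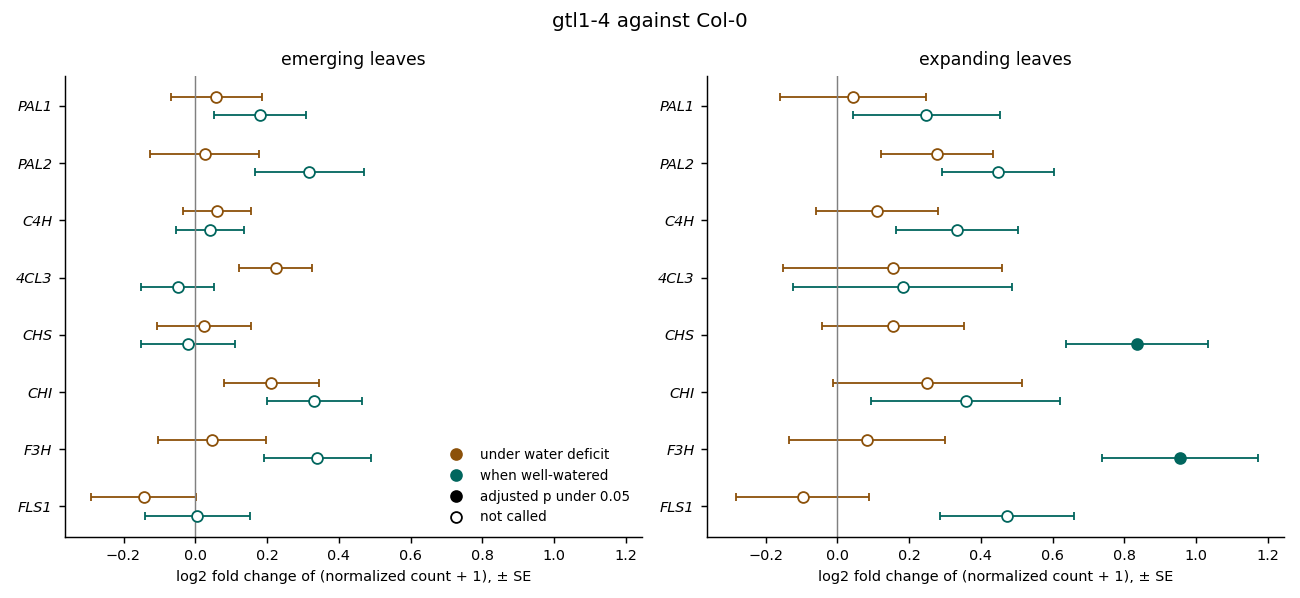
Log2 fold change of gtl1-4 against Col-0 in emerging (left) and expanding (right) leaves for the 8 enzyme genes, with the standard error. Brown marks plants under water deficit and green well-watered plants, and filled points passed an adjusted p of 0.05. The filled points are CHS at 0.83 and F3H at 0.95, in well-watered expanding leaves.

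The water response of gtl1-4 did not pass as different from that of Col-0 for any member. In expanding leaves all 8 tested members had a lower fitted response in gtl1-4 than in Col-0, with differences of -0.87 (SE 0.31) for F3H, -0.68 (SE 0.28) for CHS and -0.57 (SE 0.26) for FLS1. These 3 had an unadjusted p under 0.05, and each had adjusted p = 0.845. All 8 values stayed negative without the pair of Col-0 libraries, with a median of -0.51 against 3.4e-05 over all tested genes. The well-watered Col-0 libraries enter these differences, the water response of Col-0 and the well-watered genotype comparison alike. The 3 results are therefore not independent of one another. In emerging leaves 0 members had an unadjusted p under 0.05, and the values for F3H and CHS were -0.29 (SE 0.21) and 0.04 (SE 0.19). Limma called 0% of all tested genes in either leaf age, with 987 genes of 18529 under 0.05 unadjusted in emerging and 948 of 16522 in expanding leaves, and limma-voom also called 0 members.

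FLS1 and DFR, dihydroflavonol reductase, use the same substrate, so their ratio of normalized counts was followed by library as a description. In emerging leaves the ratio was 0.0815, 0.0777 and 0.0884 in gtl1-4 under deficit and 0.195, 0.236 and 0.167 in well-watered gtl1-4. It was 0.0896, 0.0788 and 0.124 in Col-0 under deficit and 0.178, 0.236 and 0.261 in well-watered Col-0. FLS1 was lower relative to DFR in every deficit library than in any well-watered one. In expanding leaves the ratio was 0.155, 0.146 and 0.172 in gtl1-4 under deficit and 0.748, 0.607 and 0.772 in well-watered gtl1-4, and it was 0.200, 0.313 and 0.187 in Col-0 under deficit and 2.21, 3.47 and 5.35 in well-watered Col-0. The 3 well-watered Col-0 libraries of expanding leaves were the only ones of the 24 in which FLS1 counts exceeded DFR counts. In expanding leaves DFR itself had 1779, 2261 and 1391 normalized counts in gtl1-4 under deficit and 314, 356 and 352 in well-watered gtl1-4. In Col-0 it had 1983, 838 and 1377 under deficit and 93.1, 45.3 and 29.6 when well-watered.

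**Figure D5:**
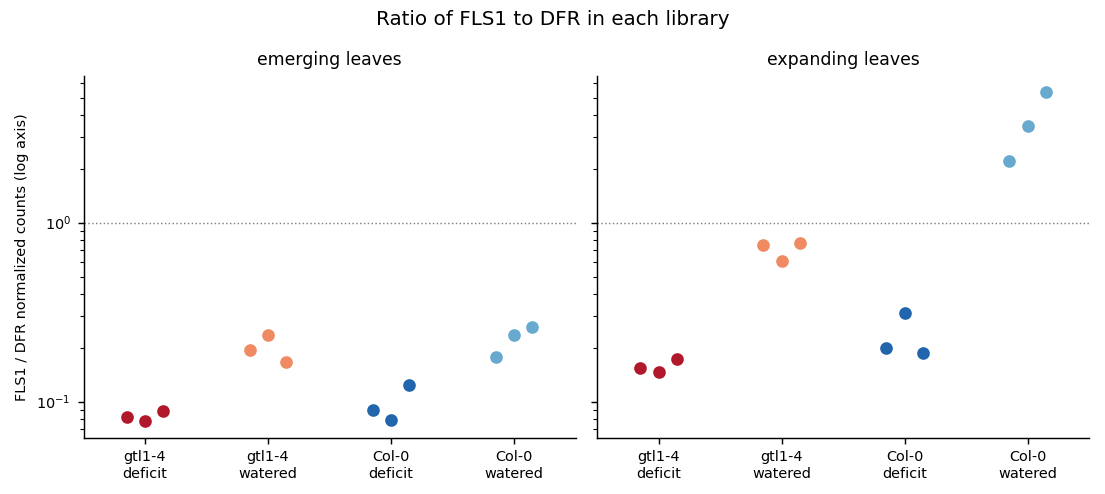
Ratio of FLS1 to DFR normalized counts in each library, on a log axis, for emerging (left) and expanding (right) leaves. Each point is a library and the dotted line marks equal counts. Well-watered Col-0 expanding leaves are alone above the line, at 2.21 to 5.35.

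Late anthocyanin genes act downstream of F3H, on the branch that competes with FLS1. All 10 of a list of 10 rose in both lines in emerging leaves, with a median of 1.26 in gtl1-4 and 1.495 in Col-0. In expanding leaves 4 of 10 rose in gtl1-4 (median 2.02) and 7 of 10 in Col-0 (median 3.42). DFR rose by 2.38 (SE 0.33, adjusted p = 0.000425) in gtl1-4 and by 4.69 (SE 0.33, adjusted p = 4.28e-07) in Col-0. In well-watered expanding leaves 4 of the 10 were higher in gtl1-4 than in Col-0, among them DFR at 2.74 (SE 0.33, adjusted p = 0.000569), GSTF12, a glutathione transferase of anthocyanin transport, at 2.34 and LDOX, anthocyanidin synthase, at 2.01. Without the pair of Col-0 libraries 8 of 10 rose in gtl1-4 and 8 of 10 in Col-0, and 5 of 10 were higher in well-watered gtl1-4 than in Col-0. DFR was then at 4.65 for the water response of Col-0 and at 2.37 between the well-watered lines, where GSTF12 was at 1.56 (adjusted p = 0.00208) and LDOX at 1.94 (adjusted p = 0.00957).

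Of 8 other genes linked to flavonoids or flavonols, 7 of them tested in each leaf age, the same 3 rose in all 4 water comparisons. These were TT7, flavonoid 3'-hydroxylase, CHIL, a chalcone isomerase-like protein, and UGT78D2, a flavonoid 3-O-glucosyltransferase. These functions do not place the 3 in the flavonol branch alone. TT7 rose by 1.73 in gtl1-4 and 2.09 in Col-0 in emerging leaves and by 2.35 in gtl1-4 and 3.02 in Col-0 in expanding leaves. Of the other 4 tested genes, 1 fell in emerging leaves of gtl1-4 and 1 in expanding leaves of Col-0. The 3 genes were also called in both lines of expanding leaves without the pair of Col-0 libraries, with TT7 at 3.24 in Col-0. The CHIL call in expanding gtl1-4 leaves (0.87, adjusted p = 0.0158) held in 2 of 6 fits that left out 1 library (adjusted p up to 0.103 over the alternatives). In expanding leaves TT7 averaged 238 ± 101 normalized counts in gtl1-4 under deficit, against 43.0 ± 4.19 when well-watered, and 163 ± 86.0 in Col-0 under deficit, against 17.8 ± 5.25 when well-watered. Among 5 other FLS family genes, 1 of them tested in each leaf age, FLS4 and FLS5 were listed at 0 in all 24 libraries. FLS2 fell in Col-0 expanding leaves (-1.31, SE 0.35, adjusted p = 0.0202), a call lost without the pair of Col-0 libraries (-0.86, adjusted p = 0.105). FLS3 was higher in gtl1-4 than in Col-0 under deficit in emerging leaves (1.47, SE 0.21, adjusted p = 0.00311).

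The other entry isoforms and P450 reductases, 7 genes, did not move as one. In emerging leaves, where 6 of the 7 were tested, 1 rose and 1 fell in each line. 4CL1, another 4-coumarate:CoA ligase, rose by 0.36 (adjusted p = 0.0346) in gtl1-4 and by 0.32 (adjusted p = 0.0466) in Col-0. PAL3 fell in gtl1-4 (-1.02, adjusted p = 0.04998) and PAL4 in Col-0 (-0.44, adjusted p = 0.0367). These calls were near the threshold. 4CL1 was called in 10 of 18 alternatives in gtl1-4 (adjusted p of 0.0167 to 0.113) and in 9 of 18 in Col-0 (0.0102 to 0.189). PAL3 was called in 5 of 18 (0.0132 to 0.168) and PAL4 in 10 of 18 (up to 0.152). In the 6 fits that left out 1 library, 4CL1 was called in 1 in each line, PAL3 in 1 and PAL4 in 0.

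In Col-0 expanding leaves PAL4 rose by 1.48 (SE 0.30, adjusted p = 0.00429), at 118 ± 20.8 normalized counts under deficit against 44.9 ± 23.0 when well-watered, and by 1.08 (adjusted p = 0.0386) without the pair of Col-0 libraries. ATR1, a P450 reductase that supplies electrons to C4H, rose by 0.62 (adjusted p = 0.0474) there, a call lost without the pair (0.26, adjusted p = 0.270). ATR2 fell (-0.48, adjusted p = 0.0378), and its call held in 11 of 19 alternatives. In gtl1-4 expanding leaves limma called 0 of the 7, and 2 had an unadjusted p under 0.05, as did 2677 of all 16522 tested genes.

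Of 10 lignin genes, 9 were tested in emerging leaves, and 1 rose in each line, CCoAOMT1 in gtl1-4 (0.46, adjusted p = 0.0255) and HCT in Col-0 (0.42, adjusted p = 0.0489). Over all tested genes 4.98% rose in gtl1-4 and 6.48% in Col-0. CCoAOMT1 was called in 12 of 18 alternatives and HCT in 8 of 18, and in the 6 fits that left out 1 library CCoAOMT1 was called in 2 and HCT in 0. In expanding leaves 1 of 10 fell in each line, HCT in gtl1-4 (-0.56, adjusted p = 0.0288, called in 11 of 19 alternatives) and CCR1 in Col-0 (-0.74, adjusted p = 0.00499, called in 19 of 19). Of all 16522 tested genes 787 were called there in gtl1-4, 49.6% of them higher, and 2231 in Col-0, 45.8% of them higher. In gtl1-4 6 of the 10 had an unadjusted p under 0.05, as did 2677 of all 16522 tested genes. With the pair of Col-0 libraries left out, 2 of 10 rose and 2 fell in gtl1-4, and 1 rose and 1 fell in Col-0.

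Of 3 sinapate ester genes, SNG1 and REF1 fell in Col-0 expanding leaves, by 0.73 (adjusted p = 0.00730) and by 0.60 (adjusted p = 0.0180). Neither was called there without the pair of Col-0 libraries (adjusted p = 0.0668 for SNG1 and 0.0762 for REF1). In that fit 1 of the 3 fell in gtl1-4 expanding leaves. AT1G23390, annotated as a Kelch repeat-containing F-box protein, fell under deficit in emerging leaves of gtl1-4 (-0.84, SE 0.15, adjusted p = 0.00261) and Col-0 (-0.82, SE 0.15, adjusted p = 0.00216) and in gtl1-4 expanding leaves (-1.11, SE 0.24, adjusted p = 0.0108), where the call held in 3 of 6 fits that left out 1 library. Of the 7 other regulators, 6 of them tested, limma called 0 in emerging leaves, with 0 in gtl1-4 and 1 in Col-0 under 0.05 unadjusted. Of all 18529 tested genes, 4536 in gtl1-4 and 5138 in Col-0 were under 0.05 unadjusted. MYB7 and MYB3, R2R3-MYB repressors of phenylpropanoid genes, rose in Col-0 expanding leaves by 2.62 and 0.73. MYB7 was at 1.36 (adjusted p = 0.0411) and MYB3 at 0.39 (adjusted p = 0.232) without the pair of Col-0 libraries. In that fit 1 of the 6 tested regulators rose and 1 fell in Col-0, and 1 rose in gtl1-4.

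Some markers also moved in these comparisons. In expanding leaves ATML1 and PDF2, homeodomain factors of the epidermis, fell with deficit in Col-0 (-0.74, adjusted p = 0.00423, and -0.65, adjusted p = 0.00387). Of 4 epidermis markers tested they were the only ones called in Col-0. In gtl1-4 ATML1 fell (-0.59, adjusted p = 0.0319). The summed epidermis markers there were 2564 to 2822 in gtl1-4 under deficit against 2694 to 3116 when well-watered, and 2683 to 3521 in Col-0 under deficit against 3332 to 4024 when well-watered. The activase gene RCA also fell in Col-0 (-0.77, adjusted p = 0.0155), the only photosynthesis marker called there of 6 tested. Without the pair of Col-0 libraries ATML1 and PDF2 were called in both lines, at -0.71 and -0.52 in Col-0. CER6 was then at 0.37 in Col-0 and not called (adjusted p = 0.229). RCA was then not called in Col-0 (-0.52, adjusted p = 0.111) and was in gtl1-4 (-0.58, adjusted p = 0.0310). The 6 photosynthesis markers then had a median of -0.02 in Col-0 and -0.27 in gtl1-4. In emerging leaves the carbonic anhydrase gene CA1 rose in Col-0 (0.61, adjusted p = 0.0141), the only photosynthesis marker called in either line. There 0 epidermis markers were called, with 0 under 0.05 unadjusted in either line. Their part in the members' results was not tested.

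Likeness to the 8 enzymes was measured as Pearson's r between a gene's log2 values and the mean of their z-scored log2 values, over the 12 libraries of each leaf age, taking the smaller of both. The 10 closest of 16185 genes tested in both tables were TT7 (0.922), ADC2 (0.916), CHIL (0.913), NRAMP4 (0.902), AT5G62210 (0.899), AT4G14090 (0.893), DFR (0.881), LDOX (0.879), AT5G17010 (0.877) and AT3G19620 (0.866). ADC2 encodes an arginine decarboxylase of putrescine synthesis and NRAMP4 a vacuolar metal transporter. The libraries share group structure and scaling, so these r are descriptions without a test. Among the 8 enzymes themselves, each a part of that mean, C4H followed the mean most closely (0.976), while FLS1 in emerging leaves (0.654) and PAL2 in expanding leaves (0.456) followed it least.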

How the data were processed

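Messenger RNA of whole leaves was measured in 24 libraries, 3 in each of 8 groups. The authors deposited normalized counts, a signal made of gene counts divided by 1 factor per library, in 1 table per leaf age. Per the submitters' processing notes, the tools were RSEM, STAR, Trim Galore, FastQC, Trimmomatic and bcl2fastq and the build TAIR10. Versions and the normalization method are not given in the sources used here. Low values followed a common step per library, and 96.5 to 97.9% lay within a tolerance of 0.002 of a whole number of steps. Dividing by the step gave the counts and depths. As part of the values is fractional, no count model was used.

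Limma 3.58.1, run under R 4.3.3, fitted log2(value + 1) over the 4 groups of a leaf age with a variance trend. A gene was tested where its 12 libraries averaged 10 or more, which held for 18529 genes in emerging and 16522 in expanding leaves. P-values were adjusted by Benjamini-Hochberg over all tested genes of a comparison, with a threshold of 0.05, and measure the spread between pooled samples. SE is the standard error of a log2 fold change. The procedure was also run on simulated counts. These held no shift shared by the genes of a library, so that run does not bear on the libraries that stood apart.

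The members, lists and tests were chosen with earlier results of these data known. The rule for other named genes was up to 3 called genes of a list per comparison with the largest change, and the 10 genes closest in pattern. DFR and LDOX in all comparisons, FLS4 and FLS5 and the FLS1 to DFR ratio were chosen after their values were seen. Replicates of every group differed by more than sampling noise. Same-numbered libraries did not deviate together (r of -0.28 to 0.20), so numbers were not treated as pairs. Names, gene models and promoters came from TAIR10.1 of RefSeq, to which 37051 identifiers matched. Figures used matplotlib 3.10.9 in Python 3.11.15.

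As alternatives, the pseudocount was set to 0.5 or 5, the minimum mean dropped or raised to 50, and values were rescaled by quantiles, by the median of ratios or to nuclear totals. Others fitted without the trend, with array weights, with the 2 compared groups alone, with a replicate block, or with limma-voom weights on recovered counts, or left out 1 replicate in turn. Leaving out both Col-0 libraries that stood apart in expanding leaves was added after seeing the data, their member values included.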

Additional observations from a re-analysis of the deposited data

How the results depend on the processing

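The counts of members called in the water comparisons of emerging leaves were 6 in both lines, with 5 to 7 in gtl1-4 and 6 or 7 in Col-0 under the alternatives. The counts of 0 stayed 0 in each alternative run. In expanding leaves the 2 calls of gtl1-4 under deficit became 1 with no low-value filter, 0 with no variance trend and 4 with array weights, and 0 to 2 when 1 library was left out. The 6 calls of Col-0 became 3 to 6 when 1 library was left out. The 2 calls of gtl1-4 against Col-0 when well-watered became 1 with a pseudocount of 0.5, 1 with a mean of at least 50, and 0 with no low-value filter, nuclear total scaling, no variance trend, array weights or both Col-0 libraries that stood apart left out, and 0 to 2 when 1 library was left out. They became 1 with a replicate block, under which PAL1 in Col-0 expanding leaves and 4CL1 in both lines of emerging leaves also lost their calls. The cause was not tested. Of 12 libraries per leaf age, 2 in emerging and 5 in expanding leaves correlated best with a library of their own number. No called member changed sign. A count test on recovered reads was planned and not run, since part of the values is fractional. MYB12 and MYB111 had at most 99 counts in a library, and MYB111 had 0, 55 and 35 counts in gtl1-4 emerging leaves under deficit at nuclear depths of 20.3, 22.7 and 26.7 M.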
